A study of Mus musculus with 8 samples.

Results

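The proteasome subunit genes are the 49 rows, among 21765 gene symbols in the deposited table, whose symbol is Psm followed by a letter from a to g, a number and at most 1 further letter. They were chosen by symbol alone, without measured values. The set holds the subunits of the 20S core and the 19S cap, the activators and the inhibitor of the core, and the assembly chaperones of both. The name Psmc3ip shares the prefix but is no member.

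RNA carried by ribosomes was sequenced from the main olfactory epithelium, the sheet of nasal tissue that holds the olfactory sensory neurons, of mice with or without Mex3a, which encodes an RNA-binding protein. Tissue was dissected into 100 µg/mL cycloheximide, a drug that holds ribosomes on their transcripts, and lysates were spun through sucrose gradients that were collected as about 42 fractions of 350 µL. From every fraction between 27 and 42, 50 µL went into 1 of 2 pools. These were early polysomes (fractions 27 to 34, lighter) and late polysomes (fractions 35 to 42, heavier), so that each lysate gave 2 libraries. Wild-type (WT) mice were Mex3a flox/flox or flox/+ with no Cre listed, and conditional knockout (cKO) mice were Mex3a flox/flox with Cre. The 4 combinations of genotype and pool held 2 libraries each, from 2 lysates a genotype. Age, sex and strain are not given in the labels, nor whether a lysate came from 1 animal or several. The p-values below therefore measure the spread between lysates and libraries, which may be technical. The title of WT early replicate 2 calls it WT while its genotype label is that of cKO. It was kept as WT. Without it, the late minus early changes of the 47 tested members described below shifted by -0.10 (Psmb10) to 0.07 (Psmg3) on the log2 scale, no sign turned, and the calls of Psma5 and Psmd5 were lost; the main counts, the differences between paired genes and the genotype differences of Psmb8 and Psme4 are also given without it.

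The proteasome degrades proteins that have been tagged with ubiquitin. Its 20S core is a barrel of stacked rings, with outer rings of alpha subunits that gate the entry and inner rings of beta subunits, some of which cut peptide bonds. A 19S cap on the end of the barrel binds ubiquitin, unfolds the substrate with a ring of ATPases and feeds it into the core. Each complex needs its subunits in fixed proportions, and dedicated chaperones that are not in the finished particle assemble both. In cells that respond to interferon, inducible forms replace the cutting subunits and alter the peptides made for display by MHC class I molecules.

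The question here was where on the polysome gradient the transcripts of these genes lie, and whether that, or their polysome level, differs without Mex3a. Several members of nearly equal coding length differed in where they lay on the gradient. The bases around the start codon are shown for these, so that the results on these pairs can be read beside their sequence. Psmb8, shown beside Psmb10, was not called in either direction, while the other pairs lay on opposite sides. The pairs were picked after the values were seen. Each stretch runs from 6 bases before the start codon to 1 base after it, with the start codon in capitals, as in the GENCODE M21 annotation of mouse GRCm38 (mm10).
Psme1: ctggccATGg
Psme2: ggaagcATGg
Psma4: gaaaccATGt
Psma7: gcagtgATGa
Psma3: agcaccATGa
Psmd4: ggcaagATGg
Psmd8: tgcggcATGt
Psmb10: tgcgagATGc
Psmb8: gtggtcATGg

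These stretches lie at chr14:55578569-55578578 on the plus strand (Psme1), chr14:55590886-55590895 on the minus strand (Psme2), chr2:180042370-180042379 on the minus strand (Psma7) and chr12:70974741-70974750 on the plus strand (Psma3). The others are at chr3:95042530-95042539 (Psmd4, minus strand), chr7:29180642-29180651 (Psmd8, minus), chr8:105938007-105938016 (Psmb10, minus) and chr17:34198393-34198402 (Psmb8, plus). The Psma4 stretch is on the plus strand of chromosome 9 and spans an intron between 54952100 and 54952341. A purine 3 bases before the start codon together with a G just after it, the pair of letters most often named in a strong vertebrate start context, was present in 25 of the 47 members tested below and in 44.4% of 14355 genes. It was present in 12 of the 24 members that were higher in late polysomes and in 7 of the 14 that were lower, 50.0% of each. An ATG upstream of the start codon, within the annotated 5′ UTR, was found in 18 of the 47 members (38.3%), against 54.9% of 14410 genes. It was found in 11 of the 24 and 5 of the 14 (45.8% and 35.7%), and in 2 of the 9 that were not called (22.2%). Both features were thus found among members on either side of the gradient.

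A different kind of sequence limits Psme2 and its single-exon relative Psme2b, whose coding sequences of 720 bases differ at 5 bases (99.3% identity) and share an identical run of 311 bases. Bases 484 to 543 of both coding sequences are shown, with the 3 differing bases in capitals.
Psme2: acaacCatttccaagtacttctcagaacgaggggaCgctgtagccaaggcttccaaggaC
Psme2b: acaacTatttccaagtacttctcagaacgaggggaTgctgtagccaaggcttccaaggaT

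Reads from within these coding sequences could be told apart only where they cross such a base, and how shared reads were counted is not given in the sources used here, so the split between them is uncertain. Psme2b was listed at 0.794 to 2.58 TPM, which corresponds to 4 to 11 reads per library, and its values are given for completeness.

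The values are transcripts per 1000000 (TPM), which are corrected for transcript length, so levels of different genes can be set side by side. Depth inferred from the TPM steps was 7776792 (cKO late replicate 2) to 12771079 reads per library (WT late replicate 2). Mex3a, the targeted gene, was listed at 93.2 to 115.6 TPM in the 4 WT libraries and at 11.1 to 19.8 TPM in the 4 cKO libraries, and the WT early library with the conflicting tag was the one at 115.6 TPM. Summed markers of mature olfactory neurons (Omp, Cnga2, Gnal, Adcy3, Ano2) reached 4611 to 6855 TPM in every library, so the defining genes of the labelled tissue were present, and no marker on any of the 9 lists was at 0 in all libraries. Summed markers of sustentacular cells, the supporting cells of the epithelium, were 1262 to 1724 TPM in early and 4203 to 5097 TPM in late libraries. Summed markers of neutrophils were 165.8 to 287.4 TPM in early and 74.1 to 98.3 TPM in late libraries. The part of such differences between cell types in the late against early values below was not tested.

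Levels of the tested members spanned a wide range, with the lowest means at Psme2b and the inducible subunits. After scaling between libraries, the median over the 47 tested members was 130.7 TPM in early and 173.4 TPM in late libraries. The 2 members that failed the filter of a mean of 1 TPM were Psma8, the germ cell form of an alpha subunit, listed at 0 to 1.62 TPM on 0 to 12 reads, and Psmb11, the form used in the thymus, at 0 to 0.278 TPM on 0 to 5 reads. Within the core, levels in early libraries ran from 60.9 TPM for Psmb5 to 401 TPM for Psmb6, a 6.59-fold range among subunits that occur in equal numbers in the particle. Cap subunits ran from 81.0 TPM (Psmd14) to 355 TPM (Psmd8) in early and from 141 TPM (Psmd14) to 519.6 TPM (Psmd4) in late libraries.

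**Figure D1:**
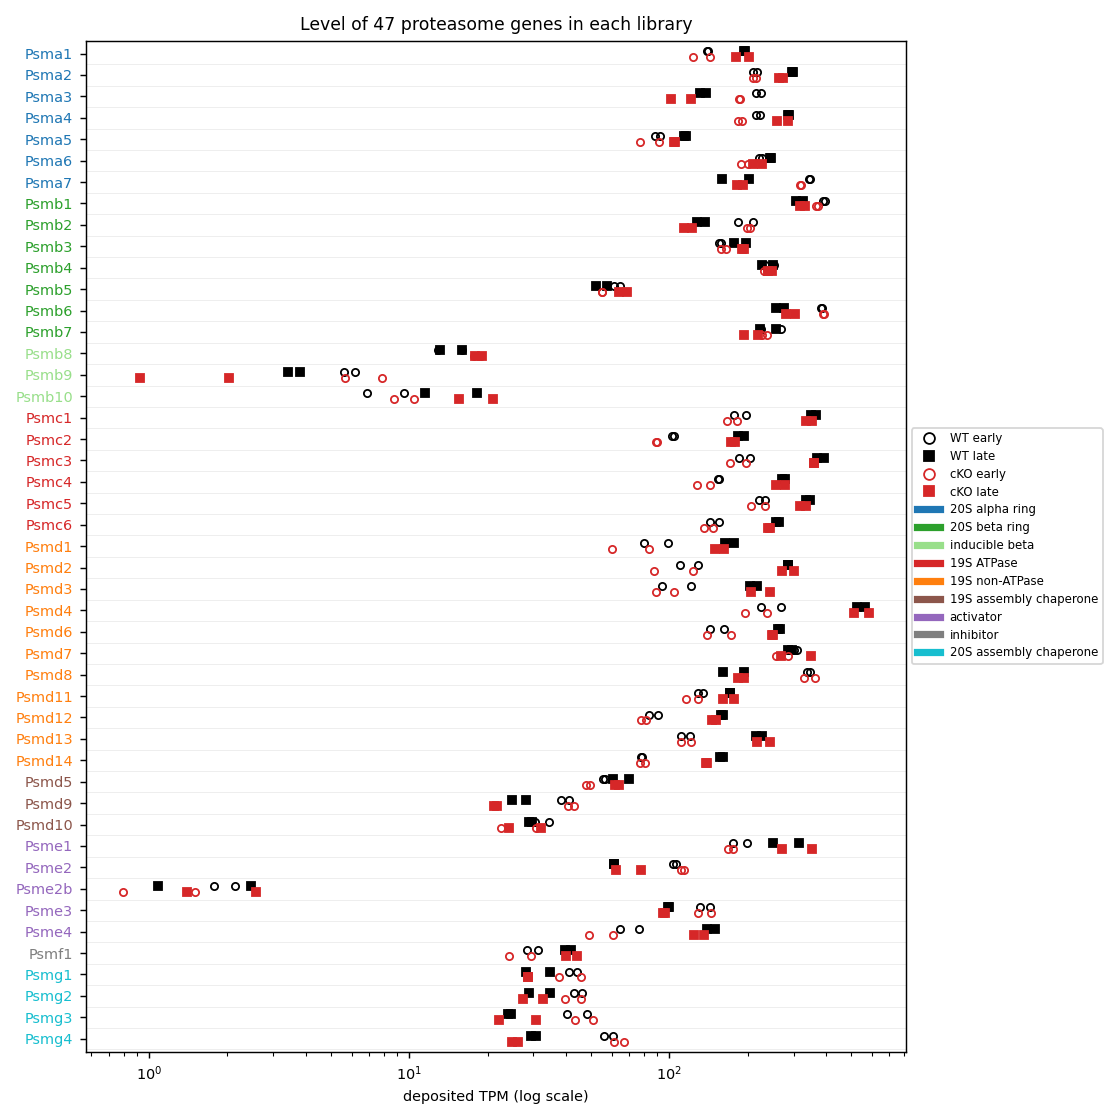
Deposited TPM (log scale) of the 47 tested members, 1 row a gene and 1 mark a library (2 libraries a group), with gene names coloured by role. Filled late marks lie to the right of open early marks for all 6 cap ATPases and to the left for all 4 core assembly chaperones, while Psme2b and Psmb9 have the lowest means.

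Transcripts of cap subunits were mostly higher in late polysomes, while core subunits as a whole lay on both sides, near the shares of all genes. The changes below are differences in log2(scaled TPM + 1), late minus early, over both genotypes, tested with limma on 16097 genes and called at a Benjamini-Hochberg adjusted p of 0.05. Of the 47 members, 24 were higher in late polysomes (34.3% of all genes were), 14 were lower (34.6% of all genes) and 9 were not called, with a median of 0.17 against -0.01 over all genes. In all, 38 of 47 members were called, against 68.9% of all genes. Without WT early replicate 2 the counts were 22 higher and 14 lower. All 4 late libraries lay above all 4 early ones for 23 members (31.5% of all genes), all 4 below for 15 (30.9% of all genes; Psmb4, at -0.10, was the 1 of them not called), and the libraries overlapped for 9.

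**Figure D2:**
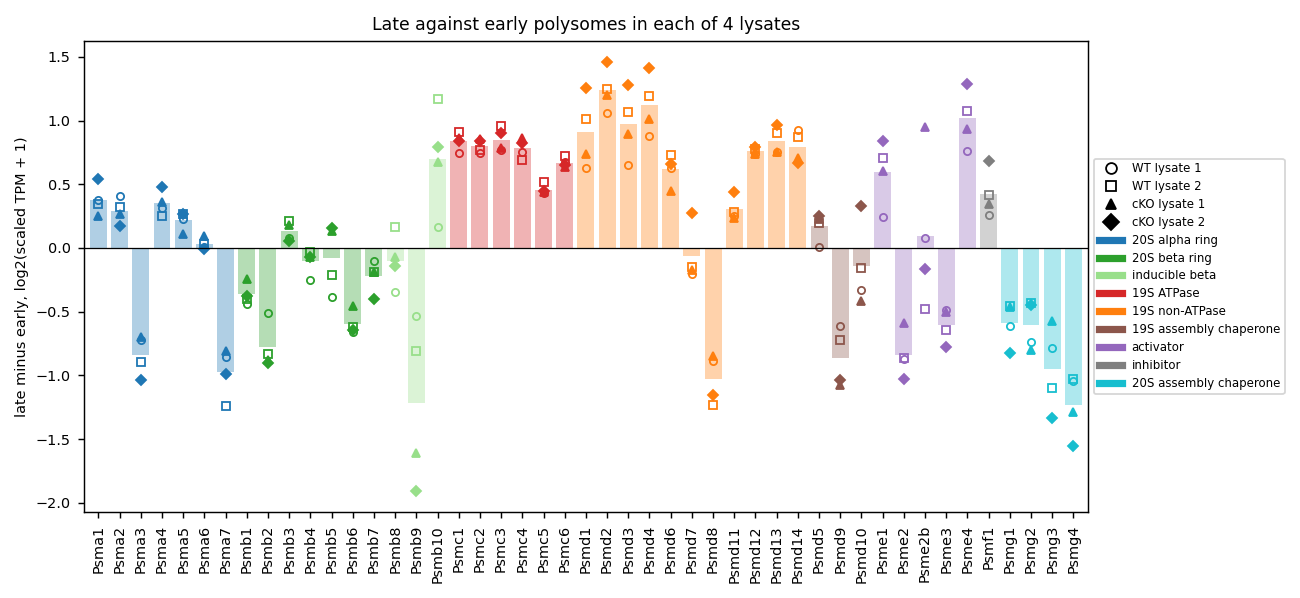
Late minus early difference in log2(scaled TPM + 1) for the 47 tested members, with a mark for each of 4 lysates (2 WT, 2 cKO) and a bar at the fitted change. The marks of all 4 lysates are above 0 for the 6 cap ATPases and below 0 for Psma3, Psma7, Psmd8 and the 4 core assembly chaperones.

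The alpha ring of the core was split, where 34.3% of all genes were higher in late polysomes and 34.6% lower. Of its 7 constitutive genes 4 were higher in late polysomes, Psma1 (0.38), Psma4 (0.35), Psma2 (0.29) and Psma5 (0.22), 2 were lower, and Psma6 (0.03, SE 0.07) was not called, though it passed as higher with quantile normalization (0.19, adjusted p = 0.0386) and with the coding length trend described below removed (0.41). Psma7 was deposited at 344 and 346 TPM early and 202 and 159 TPM late in WT, and at 317 and 322 TPM early and 192 and 182 TPM late in cKO. Every late library was below every early one, and the change was -0.97 (SE 0.09, adjusted p = 4.0e-05). Psma3, which also overlaps the gene 3110056K07Rik on the opposite strand, was at 215 and 225 TPM early and 138 and 132 TPM late in WT, and at 187 and 186 TPM early and 122 and 101 TPM late in cKO, a change of -0.84 (SE 0.08, adjusted p = 5.2e-05). Psma4, of similar coding length, overlaps the gene AY074887 on the opposite strand. It was at 215 and 222 TPM early and 285 and 289 TPM late in WT, and at 189.7 and 183 TPM early and 259 and 286 TPM late in cKO. For Psma4 every late library was above every early one. The difference between the changes of Psma4 and Psma7 was 1.32 ± 0.18 (SD, n = 4 lysates, range 1.17 to 1.49; 1.27 ± 0.17 over the 3 lysates left without WT lysate 2), with coding lengths of 786 and 747 nt. The 2 subunits of 1 ring thus differed by over 1 log2 unit in each lysate. The Psma5 call was lost in 4 of the fits that leave out 1 library (adjusted p 0.053 to 0.064, without WT early replicate 2, WT late replicate 1 or 2, or cKO early replicate 2).

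Of the 7 constitutive beta subunits 0 were called higher in late polysomes (34.3% of all genes were) and 3 were lower (34.6%). Some of these calls changed with the setting. Psmb3 passed as higher with TPM unscaled (0.25), with quantile normalization (0.25) and with the coding length trend removed (0.76), and Psmb4 (0.20) and Psmb5 (0.23) passed with that trend removed. Psmb2 (-0.78), Psmb6 (-0.60) and Psmb1 (-0.36) were lower, of which Psmb1 lost its call with quantile normalization (-0.046, adjusted p = 0.567), and the other 4 of the 7 were not called, from Psmb3 at 0.13 (SE 0.07) to Psmb7 at -0.22 (SE 0.09). With lysate as a block, Psmb7 passed as lower (adjusted p = 0.0436), and without the block it did not (adjusted p = 0.0631); it also passed with voom on inferred reads (0.0389), without WT early replicate 1 (0.0331) and without cKO late replicate 1 (0.0349). Psmb6, the caspase-like subunit, was deposited at 384 and 388 TPM early and 257 and 275 TPM late in WT, and at 393 and 391 TPM early and 303 and 281 TPM late in cKO, with an adjusted p of 0.000124. Psmb7, the trypsin-like subunit, was at 225 and 268 TPM early and 224 and 257 TPM late in WT, and at 236 and 227 TPM early and 219.8 and 193 TPM late in cKO, and its early and late libraries overlapped. Psmb5, the chymotrypsin-like subunit and the lowest of the constitutive core genes, was at 64.6 and 61.4 TPM early and 52.4 and 57.6 TPM late in WT, and at 55.3 and 54.9 TPM early and 64.3 and 68.97 TPM late in cKO. Its WT libraries were higher in early and its cKO libraries higher in late polysomes, which gave an average of -0.08 (SE 0.06) that was not called.

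The inducible cutting subunits were low and differed among themselves. Psmb8, the inducible partner of Psmb5, was deposited at 16.02 and 12.9 TPM early and 13.1 and 15.9 TPM late in WT, and at 17.7 and 18.8 TPM early and 17.9 and 19.1 TPM late in cKO, 21.1% to 34.3% of Psmb5, and its late change was -0.10 (SE 0.10, not called). Psmb10, the partner of Psmb7, was at 9.58 and 6.88 TPM early and 11.5 and 18.2 TPM late in WT, and at 8.77 and 10.4 TPM early and 15.5 and 21.02 TPM late in cKO, 2.57% to 10.9% of Psmb7, and was higher in late polysomes by 0.70 (SE 0.17, adjusted p = 0.00563), although its scaled libraries overlapped. Psmb9, the partner of Psmb6, was at 5.63 and 6.20 TPM early and 3.81 and 3.41 TPM late in WT, and at 7.83 and 5.65 TPM early and 2.03 and 0.920 TPM late in cKO, 0.328% to 1.99% of Psmb6. Every late library was below every early one (-1.21, SE 0.18, adjusted p = 0.000444), but on 2 to 30 reads per library. Psmb9 (chr17:34181987-34187764) overlaps Tap1 on the opposite strand; the library kit keeps strand, but whether counting used it is not given in the sources used here. Psmb10 and Psmb8 differed in their change by 0.80 ± 0.22 (SD, n = 4 lysates; 0.73 ± 0.21 without WT lysate 2), with coding lengths of 822 and 831 nt. They rested on 42 to 101 and 63 to 103 reads per library, and the change of Psmb10 ran from 0.16 to 1.17 over the lysates. Psmb10 overlaps Gm16156 and Psmb8 overlaps Gm20496, also on the opposite strand. The other genes of antigen presentation that accompany these subunits were mostly late: 8 of 12 were higher (34.3% of all genes were), from Irf1 at 0.63 to H2-K1, an MHC class I heavy chain, at 1.18, and B2m, the short light chain, was lower (-1.39). Summed white blood cell markers (Ptprc, Cd52, Laptm5, Coro1a, Cd3e, Cd79a) were 81.5 to 86.5 TPM in early and 82.6 to 101.9 TPM in late libraries, and their part in these values was not tested. Taken singly, 1 of these 6 markers was higher in late polysomes, 2 were lower (34.6% of all genes were) and 3 were not called, with a median of -0.25.

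**Figure D3:**
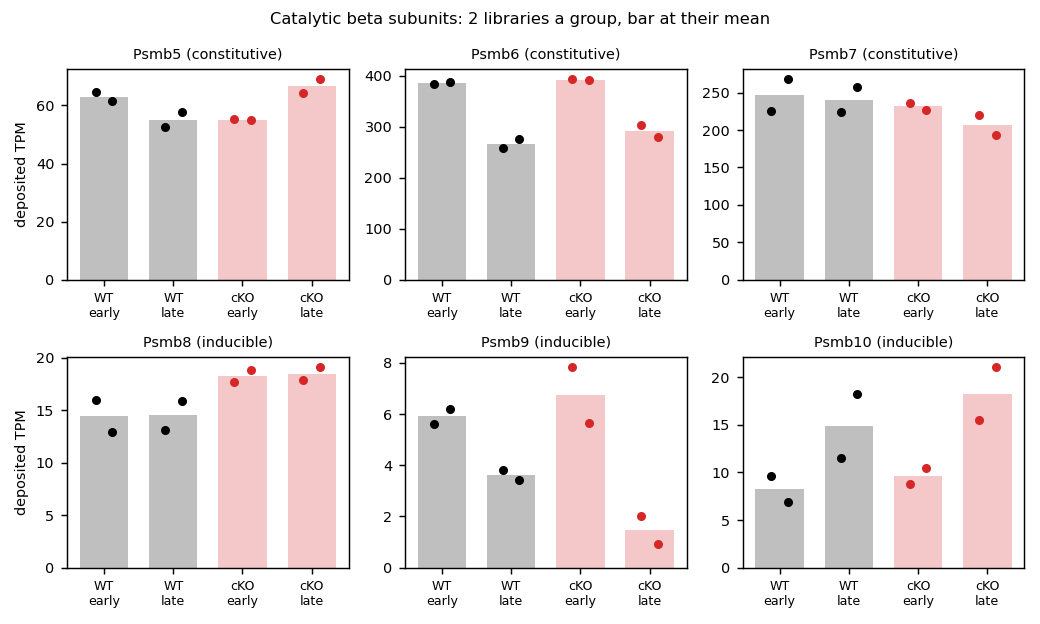
Deposited TPM of the constitutive cutting subunits (top) and their inducible partners (bottom), 1 point a library, bars at the mean of 2 libraries, each panel with its own axis from 0. Psmb6 lies lower in late libraries of both genotypes, Psmb5 lies lower in late libraries of WT and higher in those of cKO, and Psmb8 lies between 12.9 and 19.1 TPM in all 8 libraries.

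The ATPase ring of the cap lay toward the late pool as a whole. All 6 genes, Psmc1 to Psmc6, were higher in late polysomes (34.3% of all genes were), by 0.46 (Psmc5) to 0.85 (Psmc3), with a median of 0.79. Each was higher in late polysomes of all 4 lysates. Psmc2, with the smallest error among them, was deposited at 103 and 104 TPM early and 184 and 194 TPM late in WT, and at 89.7 and 88.5 TPM early and 173 and 179 TPM late in cKO. Every late library was above every early one, and the change was 0.80 (SE 0.06, adjusted p = 2.1e-05), a 1.75-fold difference. Psmc3, which overlaps Slc39a13 on the opposite strand, was at 204 and 186 TPM early and 369 and 394 TPM late in WT, and at 197 and 170.4 TPM early and 359.8 and 358 TPM late in cKO (adjusted p = 3.1e-05). Psmc5 stood below the other 5, at 0.46 (SE 0.07), and spanned only 0.43 to 0.52 over the 4 lysates. Summed over the 6 ATPases, deposited levels were 896 to 1047 TPM in early and 1686 to 1829 TPM in late libraries.

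Of the 11 other cap subunits 9 were higher in late polysomes (34.3% of all genes were). The 11 held 2 of the 3 most positive changes among members and 1 of the 3 most negative. Psmd2 (chr16:20651652-20663414, GRCm38), the scaffold that docks ubiquitin shuttle proteins, was deposited at 129 and 109 TPM early and 286 and 285 TPM late in WT, and at 124 and 87.3 TPM early and 302 and 272 TPM late in cKO. It had the largest positive change of the members, 1.24 (SE 0.11, adjusted p = 3.6e-05), or 2.36-fold. Psmd4 (chr3:95032694-95042614), a ubiquitin receptor of the cap, was at 268 and 226 TPM early and 525 and 566 TPM late in WT, and at 238 and 195 TPM early and 510.4 and 585 TPM late in cKO, a change of 1.12 (SE 0.09, adjusted p = 2.7e-05). In late libraries Psmd4 had the highest level of all members. Psmd3, Psmd1, Psmd13, Psmd14 (the deubiquitinase of the cap), Psmd12, Psmd6 and Psmd11 followed at 0.97, 0.91, 0.84, 0.79, 0.76, 0.62 and 0.30. Psmd13 overlaps Sirt3 and Psmd1 overlaps Htr2b on the opposite strand. On the same strand Psmd13 overlaps Gm15542, and Psmd1 overlaps Gm22786, Gm37914 and Gm21972.

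Psmd8 (chr7:29174188-29180701), a lid subunit, went the other way. It was deposited at 338 and 347 TPM early and 193 and 161 TPM late in WT, and at 328 and 363 TPM early and 193 and 183 TPM late in cKO, every late library was below every early one, and the change was -1.03 (SE 0.09, adjusted p = 3.0e-05). It had the highest level of the cap genes in early libraries, and its late to early ratio differed from that of Psmd4 by 2.15 ± 0.40 on the log2 scale (Psmd4 minus Psmd8, SD, n = 4 lysates, range 1.77 to 2.56; 2.06 ± 0.44 without WT lysate 2), with coding lengths of 1131 and 1062 nt. Psmd7, the inactive partner of Psmd14, was at 310.3 and 301 TPM early and 286 and 296 TPM late in WT, and at 285 and 258 TPM early and 268 and 351 TPM late in cKO, and was not called (-0.06, SE 0.09). Its sign turned without cKO late replicate 1 (0.021) and with TPM unscaled (0.053), quantile-normalized (0.20) or freed of the coding length trend (0.072). Over all 17 cap subunits 15 were higher (34.3% of all genes were), 1 was lower (34.6%) and 1 was not called, with a median of 0.79. The same counts over the 14 constitutive core subunits were 4, 5 and 5, near those shares of all genes, with a median of -0.09. Summed deposited levels of the 14 core genes were 2928 to 3171 TPM in early and 2775 to 2927 TPM in late libraries, and those of the 17 cap genes were 2467 to 2899 TPM in early and 4283 to 4504 TPM in late libraries.

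Genes that act on the finished core divided by gene. Psme1 and Psme2 encode the alternating subunits of the same ring-shaped activator, which interferon induces, and lie near each other at chr14:55578123-55581529 and chr14:55587441-55591113. Psme1 was deposited at 199 and 176 TPM early and 251 and 315 TPM late in WT, and at 168 and 176 TPM early and 271 and 355 TPM late in cKO, and was higher in late polysomes (0.60, SE 0.10, adjusted p = 0.000985). Psme2 was at 106 and 103 TPM early and 61.2 and 61.4 TPM late in WT, and at 111 and 114 TPM early and 77.7 and 62.2 TPM late in cKO, and was lower (-0.84, SE 0.09, adjusted p = 6.3e-05). The 2 partners, with coding lengths of 750 and 720 nt, differed by 1.44 ± 0.35 (SD, n = 4 lysates, range 1.12 to 1.87; 1.39 ± 0.41 without WT lysate 2), Psme1 being the later one in each lysate. Psme1 overlaps Emc9 on the opposite strand, and Psme2 shares sequence with Psme2b as shown above. Psme2b itself was at 0.10 (SE 0.24, not called), with a sign that turned without WT late replicate 1, cKO early replicate 1 or cKO late replicate 1 (-0.085, -0.031 and -0.055).

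Psme3, the subunit of a nuclear activator ring, was deposited at 131 and 144 TPM early and 99.1 and 99.8 TPM late in WT, and at 129 and 145 TPM early and 96.3 and 94.6 TPM late in cKO, and was lower in late polysomes (-0.60, SE 0.07, adjusted p = 0.000138). Psme4 (chr11:30771726-30880361), a large single-chain nuclear activator with a coding length of 5532 nt, the longest among the members, was at 76.6 and 64.4 TPM early and 139 and 149 TPM late in WT, and at 60.97 and 48.99 TPM early and 125 and 136 TPM late in cKO. Its change of 1.02 (SE 0.09, adjusted p = 3.1e-05) was the third highest. Psmf1, which encodes the core inhibitor PI31, was higher in late polysomes (0.43, SE 0.08, adjusted p = 0.00159) and was listed at 24.2 to 44.3 TPM.

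The 4 chaperones that assemble the core lay toward the early pool. Psmg1 to Psmg4 were all lower in late polysomes (34.6% of all genes were), at -0.59, -0.60, -0.95 and -1.23, and each was lower in all 4 lysates. Psmg4 (chr13:34162964-34178173) had the most negative change of the members, with an SE of 0.07 and an adjusted p of 1.9e-05. It was deposited at 60.7 and 55.98 TPM early and 30.7 and 29.4 TPM late in WT, and at 61.5 and 66.6 TPM early and 26.1 and 24.8 TPM late in cKO. Pomp, the core maturation factor, which has no Psm symbol, was lower as well (-1.17, SE 0.10, adjusted p = 3.1e-05). The 3 chaperones of the cap base did not share a direction. Psmd9 was lower (-0.86, SE 0.07, adjusted p = 3.2e-05), Psmd10 was not called (-0.14, SE 0.12), and Psmd5 was only just past the threshold (0.17, SE 0.07, adjusted p = 0.0479). The Psmd5 call was lost in 11 alternatives (adjusted p 0.072 to 0.67), among them the fit with lysate as a block (adjusted p = 0.074) and every fit that leaves out 1 library except the one without WT late replicate 1.

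Since a longer coding sequence can hold more ribosomes, position on the gradient was set beside coding length, taken from GENCODE M21 for all 47 tested members and for 14665 (91.1%) of the genes tested. Across the 47 members Spearman's rho between coding length and the late minus early change was 0.75, and across the 14665 genes it was 0.64; genes are not independent replicates, and no p is given. Within the cap (17 genes) rho was 0.52, and within the constitutive core (14 genes, 606 to 834 nt) it was 0.10. Whole transcript length, which includes the coding length, gave a rho of 0.47 and mean TPM one of 0.23. Lengths of the 5′ UTR (rho 0.15) and 3′ UTR (-0.05) and GC content of the coding sequence (-0.21) gave values nearer 0.

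Cap subunits lay later than most genes of their length. Between 1100 and 1400 nt the 10 members had a median change of 0.77, from 0.30 to 1.12, against 0.05 over 1884 genes, and 8 of the 10 lay above the upper quartile of those genes (0.52). Between 700 and 850 nt, where 20 members fall, values ran from -0.97 (Psma7) to 0.70 (Psmb10) around a median of -0.09, against a median of -0.44 and quartiles of -0.74 and 0.04 over 895 genes. The 2 shortest members, Psmg3 (369 nt) and Psmg4 (372 nt), lay at -0.95 and -1.23, near the median of -1.24 over 947 genes of at most 450 nt.

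**Figure D4:**
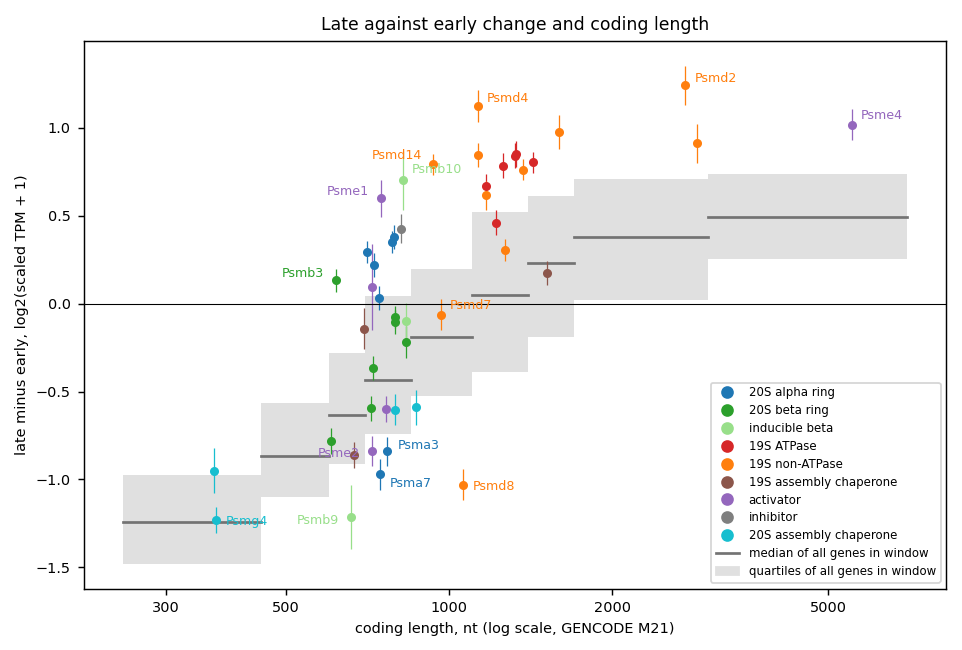
Late minus early change against coding length (log scale) for the 47 tested members, with error bars of 1 SE, over the median and quartiles of all genes with a length in each length window. Cap subunits (red and orange) lie above the median of their window except Psmd8, and Psma3, Psma7 and Psme2 lie below the lower quartile of theirs.

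When a smooth trend on log2 coding length was removed from each library, 28 members were higher in late polysomes (27.6% of all genes with a length), 10 were lower (29.7%, with 57.3% called), and the median was 0.41 against -0.02. The 6 ATPases stayed higher, at 0.39 (Psmc5) to 0.72 (Psmc3), and Psmd8 (-0.98), Psma7 (-0.60), Psma3 (-0.50), Psme2 (-0.42) and Psmb9 (-0.68) stayed lower. Psmg3 and Psmg4 were no longer called (0.20 and -0.09), and neither were Psmb1 (0.048), Psmb2 (-0.13) and Psmd5 (-0.037). Psma6 (0.41), Psmb3 (0.76), Psmb4 (0.20), Psmb5 (0.23) and Psmd10 (0.32), which had not been called, passed as higher. By role, 15 of the 17 cap subunits were higher and 1 lower, with a median of 0.64. The 14 constitutive core subunits moved from 4 higher and 5 lower to 8 higher and 3 lower, with a median of 0.21. Within the core the alpha ring had 5 of 7 higher and 2 lower, with a median of 0.63, near that of the cap. The beta ring had 3 of 7 higher and 1 lower, with a median of 0.05. The largest values after this step were Psmd4 (1.12), Psmb10 and Psme1 (0.97 each) and Psmd14 (0.96).

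The pattern by role was present in both genotypes. In WT 22 members were higher (27.1% of all genes) and 14 lower (27.7%, with 54.8% called), and in cKO 21 were higher (28.9%) and 14 lower (29.2%, with 58.1% called). Without WT early replicate 2 the WT counts were 16 and 12, with 1 early library left, which is assumed to vary like the other groups. The 6 ATPases and 9 of the 11 other cap subunits were higher, and the 4 core assembly chaperones lower, in each genotype taken alone. With the coding length trend removed, the 6 ATPases and 8 of the 11 other cap subunits were higher in each genotype, but only 1 of the 4 chaperones was lower in each, and the members lower fell to 5 in WT (20.8% of all genes) and 8 in cKO (22.3%).

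No proteasome gene was called between cKO and WT. In bulk tissue, fewer cells of a type and less RNA per cell cannot be told apart, and this applies to all genotype values here. Of the 47 members 0 passed by limma in early polysomes (0.0435% of all genes did), in late polysomes (0.0124%), on the means of the 2 libraries of each lysate (0.00621%) and in the interaction of genotype and fraction (0.00621%). At an unadjusted p under 0.05 the counts were 2 (6.65% of all genes), 4 (9.36%), 4 (11.3%) and 4 (2.85%). The test on whole reads with voom, and every other alternative, also called 0 members in each of the 4, including the fits without WT early replicate 2. The medians over the members, cKO minus WT, were -0.03 in early polysomes, -0.02 in late polysomes and -0.02 on lysate means. With 2 lysates a genotype these counts do not show that the levels were equal. For the 17 cap subunits the fitted genotype differences on lysate means lay between -0.18 and 0.10, and for the 14 core subunits between -0.21 and 0.13.

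**Figure D5:**
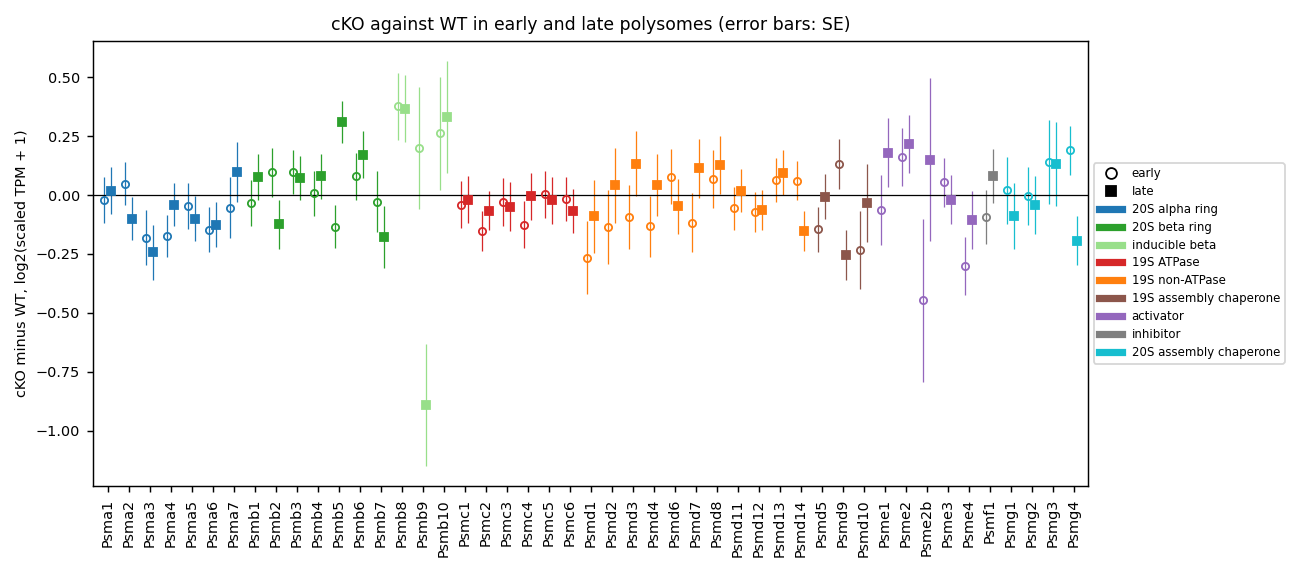
Difference in log2(scaled TPM + 1) between cKO and WT for the 47 tested members, in early (open circles) and late polysomes (filled squares), with error bars of 1 SE. Most values lie within 0.25 of 0, and Psmb9 in late polysomes stands lowest at -0.89, on 2 to 30 reads per library over all libraries.

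The members with the smallest p in the genotype comparisons included inducible subunits, their partner Psmb5 and the activator gene Psme4. Psmb8, whose values were given above, was above WT in each fraction, with every cKO library above every WT one: the difference was 0.38 (SE 0.14, adjusted p = 0.72) in early polysomes, 0.37 (SE 0.14, adjusted p = 0.49) in late polysomes and 0.37 (SE 0.09, adjusted p = 0.36) on lysate means by limma. Without WT early replicate 2 the early difference was 0.24 (adjusted p = 0.78). For Psme4 the difference was -0.30 (SE 0.12, adjusted p = 0.73) in early polysomes and -0.20 (SE 0.07, adjusted p = 0.40) on lysate means, and without WT early replicate 2 it was -0.41 in early polysomes (adjusted p = 0.754) and, leaving out that whole lysate, -0.24 on lysate means (adjusted p = 0.704). Psma4 in early polysomes (-0.17, adjusted p = 0.79) and Psma3 on lysate means (-0.21, adjusted p = 0.41) came next. None of these passed the threshold. In late polysomes Psmb5 (0.31, SE 0.09, adjusted p = 0.39) and Psmb9 (-0.89, SE 0.26, adjusted p = 0.39) had the smallest p, and they also had the smallest in the interaction, at 0.44 (SE 0.13) and -1.09 (SE 0.37), followed by Psmg4 (-0.38, SE 0.15). All 3 interactions had an adjusted p of 1.0. The Psmb9 values rest on 2 to 30 reads per library.

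Psmb10 differed by 0.26 (SE 0.24) in early and 0.33 (SE 0.24) in late polysomes, and was not called (adjusted p = 0.89 and 0.688). Psme1 (-0.06 and 0.18) and Psme2 (0.16 and 0.22) were not called. Beside these stood the other genes of antigen presentation, of which 0 of 12 were called. In early polysomes 11 of 12 lay above 0 and in late polysomes 12 of 12 (medians 0.13 and 0.28). Over all genes tested 8243 of 16097 lay above 0 in early and 8005 in late polysomes (medians 0.005 and -0.0007). Summed macrophage markers (Csf1r, C1qa, C1qb, Adgre1) were 81.6 to 92.2 TPM in WT early and 86.9 to 101.7 TPM in cKO early libraries, and 116.0 to 128.8 TPM in WT late and 149.5 to 157.1 TPM in cKO late libraries. Summed white blood cell markers were 81.5 to 81.7 TPM in WT early and 85.9 to 86.5 TPM in cKO early libraries, and 82.6 to 92.3 TPM in WT late and 91.9 to 101.9 TPM in cKO late libraries. The part of these cells in the values of the inducible subunits was not tested.

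Genes that work with the proteasome, the Nfe2l1 pathway and related complexes are given beside the shares of all genes that were higher (34.3%) and lower (34.6%) in late polysomes. Of 18 tested partners without a Psm symbol 8 were higher in late polysomes, 7 were lower and 3 were not called, with a median of 0.13, which is near those shares. Vcp (1.04), the segregase that pulls ubiquitinated proteins apart, its cofactor Ufd1l (0.72), the shuttles Ubqln2 (1.22) and Ubqln1 (0.84) and the cap deubiquitinase Usp14 (0.61) were higher. Adrm1, a ubiquitin receptor of the cap, was only just called (0.17, adjusted p = 0.0499). Shfm1, a very small cap subunit, was lower (-1.48, SE 0.18, adjusted p = 0.00013), as was the other cap deubiquitinase Uchl5 (-0.56). The shuttles Rad23b (0.08) and Ubqln4 (-0.13) were not called.

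Of the ubiquitin genes, Ubb, a head-to-tail polyubiquitin gene, was higher in late polysomes (1.71, SE 0.10, adjusted p = 1.9e-05), and the repeated ubiquitin units make its read assignment uncertain. Uba1, the main ubiquitin-activating enzyme, was higher (1.01, SE 0.13, adjusted p = 0.0002). In the pathway of Nfe2l1, the transcription factor that raises proteasome genes when proteasome activity falls short, 9 of 15 genes were higher and 5 lower, with a median of 0.34. Nfe2l1 itself was higher (0.34, SE 0.06, adjusted p = 0.00102), as were Nfe2l2 and Nfe2l3 (0.73 each), Ddi2, the protease that activates it, was not called (0.13, SE 0.07), and the small Maf partners Mafg, Maff and Mafk were lower (-0.64, -0.40 and -0.87).

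Complexes related in shape or ancestry gave the following values for comparison. The chaperonin CCT, another ring of fixed composition, had 8 of 8 genes higher in late polysomes, from 0.64 to 1.32 with a median of 0.84, close to the values of the cap ATPases. The lid of the cap is related to the COP9 signalosome and to the initiation factor eIF3. Of 9 COP9 genes 3 were higher, near the share of all genes, and 5 lower, with a median of -0.24, and of 12 eIF3 genes 9 were higher and 1 lower, with a median of 0.41. No gene of these lists passed in the genotype comparisons.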

How the data were processed

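RNA from early and late polysome pools of 4 lysates (2 WT, 2 cKO) was measured in 8 libraries. The authors deposited 1 table of TPM for 21765 symbols, with each column summing to 1000000 and 0 columns outside these samples. RNA was extracted with TRIzol LS and libraries were made with the SMARTer Stranded Total RNA-Seq Pico v2 kit, per the labels' protocols. The submitters' processing notes name FastQC, cutadapt, STAR, DESeq2 and the build mm10, without their roles; the counting tool and the annotation are not given in the sources used here. Groups and replicate numbers came from sample titles. The Cre line in the labels is not reported here.

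Libraries were scaled by the median ratio of their genes (0.94 to 1.07). The log2 of scaled TPM plus 1 was fitted with limma 3.58.1 in R 4.3.3 on 16097 genes with a mean of at least 1 TPM, with a mean-variance trend, two-sided p-values and Benjamini-Hochberg adjustment over all genes tested at a threshold of 0.05. The pseudocount of 1 understates the change of low genes. All 8 libraries entered 1 fit of 4 groups, and genotype was also fitted on lysate means, since the 2 libraries of a lysate are not independent. TPM states no depth. In the 19783 genes above 0 in at least 2 libraries, values were whole multiples of a step within a tolerance of 0.001 reads for 100% of genes, which gave the inferred reads. Fits were also run on simulated data with no lysate effect and far fewer changed genes than here, so that run does not vouch for the calls above.

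Library names place the early and late library of a genotype and number in 1 lysate. The correlation, over genes, between the deviations of the early and of the late library of 1 lysate was 0.09 for WT and 0.05 for cKO lysates, and the lysate block was an alternative. Coding lengths and start codons came from GENCODE M21 on GRCm38 (the principal transcript), and 10 of the 49 members overlapped another annotated gene on the same strand and 18 on the other strand. Those with a same-strand overlap were Psma2, Psmb5, Psmb7, Psmc5, Psmd1, Psmd12, Psmd13, Psmd14, Psme2b and Psmg3. Strand cannot tell apart reads shared there. Alternatives were pseudocounts of 0.1 and 0.5, no filter, a mean of at least 5 TPM, unscaled and quantile-normalized TPM, no trend in the variance, only the 4 libraries compared, replicate blocks, each library left out, removal of a loess trend on coding length, and voom on inferred reads. Leaving out a library in the lysate-mean fit left out its whole lysate.

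Members were all rows matching the symbol rule. Named with values were the 3 members with the most positive and the 3 with the most negative late minus early change, the 3 with the smallest p in each genotype comparison, the cutting subunits and their inducible forms, the activators and the members that failed the filter; other members were named by role. The members, lists and pairs were chosen with earlier results of these data known. Python 3.11.15, numpy 2.4.6, pandas 2.3.3, scipy 1.17.1 and matplotlib 3.10.9 were used for the other steps.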

Additional observations from a re-analysis of the deposited data

Results flagged for a closer look

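Psmb5, which encodes the chymotrypsin-like subunit of the core, was singled out because its late minus early difference had opposite signs in the 2 genotypes. It was -0.38 and -0.22 in the WT lysates and 0.13 and 0.16 in the cKO lysates, and the interaction of genotype and fraction was 0.44 (SE 0.13, unadjusted p = 0.00768, adjusted p = 1.0 by limma), so it did not pass over all genes. The interaction lay between 0.39 and 0.50 in every alternative run, with adjusted p from 0.553 to 1.0. The average over both genotypes moved from -0.08 to 0.23 with the coding length trend removed, and the signs by genotype in that setting are not given here. Psmb5 rested on 162 to 273 reads per library.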

How the results depend on the processing

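Each named value was recomputed under 17 to 19 of the 20 alternatives, those that apply to it. In all of these, 44 of the 59 named member values, and 32 of the 47 late against early values, kept their direction and their side of the threshold. The counts of members lower in late polysomes moved by over 1.5 times with the coding length trend removed, to 5 in WT and 8 in cKO. That setting turned the sign of Psmb1 (0.048), Psmb4 (0.20), Psmb5 (0.23), Psmb7 (0.040), Psmb8 (0.16), Psmd10 (0.32), Psmd5 (-0.037), Psmd7 (0.072) and Psmg3 (0.20). TPM as deposited turned Psmb4 (0.012), Psmb5 (0.037), Psmb8 (0.012) and Psmd7 (0.053), and quantile normalization turned Psmb4 (0.083) and Psmd7 (0.20). Leaving out each library gave -0.011 to 0.075 for Psma6 and -0.15 to 0.021 for Psmd7, with the turned sign without cKO late replicate 1 in both, and -0.085 to 0.28 for Psme2b, with the turned sign without WT late replicate 1, cKO early replicate 1 or cKO late replicate 1. The causes were not tested. Quantile normalization ended the call of Psmb1 (-0.046) and made one for Psma6 (0.19). Without scaling, the median of all genes moved to 0.09 and that of the members to 0.29. Leaving out each library in turn gave 36 to 38 called members on average over genotypes (22 to 23 higher, 14 to 15 lower), 28 to 37 in WT (15 to 22 higher, 11 to 15 lower), 31 to 35 in cKO (18 to 21 higher, 13 to 14 lower) and 0 in every genotype comparison.

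With the lysate block the counts were 38 on average (23 higher, 15 lower), 33 in WT (18 and 15) and 35 in cKO (21 and 14), and among late against early values on average it changed the calls of Psmb7 and Psmd5 alone. The replicate number as a block across genotypes, which no label ties to a batch (correlation of deviations 0.33 for early, 0.14 for late), left the genotype counts at 0. Depth limits Psmb9 and Psme2b most, on 2 to 30 and 4 to 11 reads per library, and the 2 untested members. Psmb10 and Psmb8 were also low, on 42 to 101 and 63 to 103 reads per library.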

Other observations

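Promoters of 41 member genes were found among the RefSeq sequences (GRCm38.p6), and the 250 bases before the start were searched on both strands. The antioxidant response motif TGACNNNGC, the kind of site that Nfe2l1 binds, was present in 5 of the 41 (12.2%) and in 11.5% of 27025 genes. CCAAT was present in 14 of the 41 (34.1%) and in 37.5% of all genes. The interferon-stimulated response element, searched as GAAA, any 2 letters and GAAA, was present in 3 of the 41 (7.32%) and in 3.46% of all genes. The 3 were Psmb3, Psmd4 and Psmd9, and the motif was absent from the windows of Psmb8, Psmb9, Psmb10, Psme1 and Psme2. The windows of Psmb8, Psmb9 and Psme1 lay inside the gene spans of GENCODE M21. Bases before the outermost annotated start of these genes were therefore not searched. For Psmb10 and Psme2 the window overlapped the gene span in part. A match is a run of letters in a window and says nothing of binding.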
